A study of Homo sapiens with 6 samples.

Results

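The nuclear lamina and the LINC complex (linker of nucleoskeleton and cytoskeleton) were followed here through 10 genes, LMNA, LMNB1, LMNB2, LBR, EMD, SUN1, SUN2, SYNE1, SYNE2 and SYNE3. The members were listed by name and function, and each symbol matched 1 of the 38900 Ensembl gene IDs in the deposited table. All 10 averaged 10 normalized counts or more per library, the filter for testing. The samples were 6 polyA RNA sequencing libraries of hTERT RPE1, a human retinal pigment epithelial line immortalised with telomerase. Every culture had been held at full confluency for 5 days so that the cells left the cell cycle. The DMSO group of 3 libraries then received fresh medium with 0.1% DMSO, the solvent, for 6 hours, and the CA4 group of 3 libraries received 100 nM combretastatin A4 for the same time. Combretastatin A4 (CA4) binds tubulin and takes microtubules apart. Values of a group are listed in the order of replicates 1, 2 and 3. All cultures are of 1 cell line, and the labels do not say whether replicates 1 to 3 were separate experiments, so p-values measure the spread between these libraries, which may be technical.

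The lamina is a meshwork of intermediate filaments that lines the inner nuclear membrane and gives the nucleus its stiffness. Lamins A and C come from LMNA by splicing, and the B-type lamins come from LMNB1 and LMNB2. The receptor LBR and the LEM-domain protein emerin (EMD) anchor the meshwork and chromatin to the membrane. SUN proteins cross the inner membrane and bind, in the space between the membranes, the tails of nesprins (SYNE genes) that cross the outer membrane. Nesprins in turn hold actin, intermediate filaments and, through kinesin and dynein, microtubules, so this chain couples the nucleus to the filament system that CA4 removes.

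The ends of the coding sequences are given here because they carry the features by which the lamins and the nesprins are known, the farnesylation box and the KASH tail. Each stretch is the last 30 bases of the coding sequence with its stop codon, 5′ to 3′, from the GENCODE 29 transcript marked as principal for the gene. In the lamins the capitals mark the last 4 codons before the stop, the CaaX box at whose cysteine prelamin A and the B-type lamins are farnesylated.
Prelamin A (LMNA, chr1:156138755-156139106, across an exon junction): cagagcccccagaacTGCAGCATCATGtaa
Lamin B1 (LMNB1, chr5:126836235-126836264): gcatccaatagaagcTGTGCAATTATGtaa
Lamin B2 (LMNB2, chr19:2430911-2430940, minus strand): accacctcaagaggcTGCTACGTGATGtga
All coordinates are GRCh38. A cysteine codon opened the marked stretch in prelamin A, lamin B1 and lamin B2.

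In the nesprins the capitals mark the last 4 codons of the KASH domain, the tail that fits into a pocket of the SUN domain.
Nesprin-1 (SYNE1, chr6:152122436-152122465, minus strand): agatacacgaatggcCCTCCTCCACTCtga
Nesprin-2 (SYNE2, chr14:64225497-64225526): aggtacaccaatgggCCACCCCCCACAtag
Nesprin-3 (SYNE3, chr14:95417826-95417855, minus strand): ctgcgctacaatggcCCACCACCCACCtaa
In all 3 the first 3 marked codons began with CC, the proline codons. The principal transcripts held 8797 coding codons for SYNE1, 6907 for SYNE2 and 975 for SYNE3. Both giant genes also have short transcripts, and the deposited table sums all transcripts of a gene, so no isoform was measured here.

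None of the 10 genes passed the main test after CA4. With limma on log2(normalized count + 1), 0 of 10 had a Benjamini-Hochberg adjusted p below 0.05, against 4.94% of the 13928 genes tested. At an unadjusted p under 0.05 there were 2, SYNE1 and EMD, beside 23.0% of all tested genes. That count was 1 under quantile normalization and 0 when the libraries were scaled to equal totals or to the same 75th percentile. On the recovered reads edgeR also called 0 of the 10, beside 4.62% of all genes, and DESeq2 called 0, beside 11.6%. With the replicate number as a further term in limma, 2 of the 10 passed, SYNE1 and LMNB1, beside 17.2% of all genes. The last section gives their values and why that fit was not the main one. The fitted log2 fold change was above 0 in 5 members and below 0 in the other 5, with a median of -0.05 against -0.01 over all tested genes. The members' median was above 0 without DMSO replicate 1 (0.071), without CA4 replicate 3 (0.019) and without CA4 replicate 2 (0.0018), and it was -0.12 under quantile normalization and -0.15, beside -0.11 over all tested genes, under scaling to equal totals. The median size of the change, whichever its direction, was 0.22 in the members and 0.22 over all tested genes. A p that misses the threshold does not show that a level stayed the same, so the interval of each change is given below. In bulk libraries fewer cells that express a gene and less RNA per cell cannot be told apart.

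**Figure D1:**
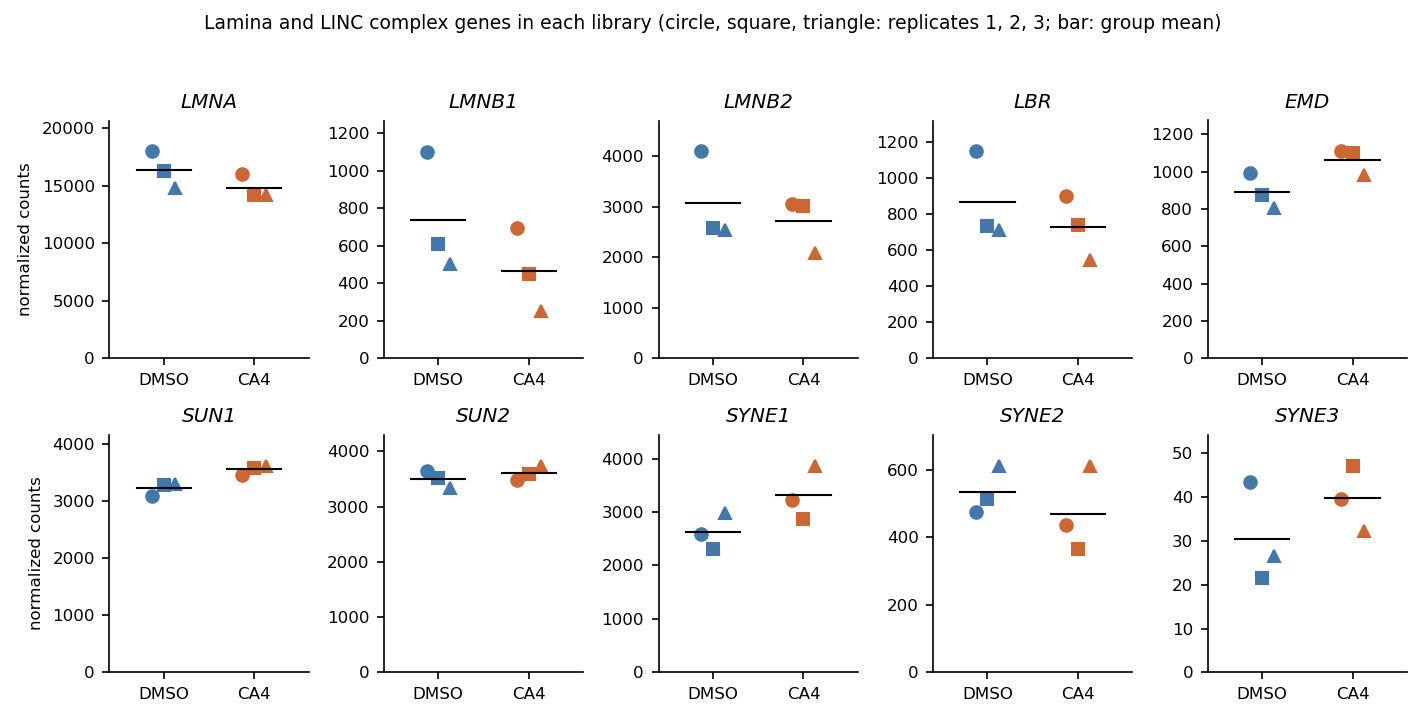
Normalized counts (vertical axis, from 0) of the 10 genes in each library, DMSO in blue and CA4 in orange, with circle, square and triangle for replicates 1, 2 and 3 and a bar at the group mean. SUN1 is the 1 gene whose CA4 points all lie above its DMSO points, and LMNB1 has the widest spread within the groups relative to its level.

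Recovered depth ran from 19524936 to 22538004 reads per library. Scaling the libraries to equal totals in place of the authors' factors moved the overall median by -0.10 on the log2 scale and took the share of called genes that were higher in CA4 from 60.0% to 34.8%, so the sign of a small change depends on the scaling. The line kept the simple-epithelial keratins KRT8 and KRT18 and the transcription factors MITF and OTX2 of the retinal pigment epithelium. Other listed markers of the retinal pigment epithelium, among them pigment and visual-cycle genes, were low. SERPINF1 was one of these, at 12.3 to 23.6 per library. RPE65, BEST1, RLBP1, LRAT, TYR, PMEL and TTR summed to between 86.9 and 172 normalized counts per library. BEST1 was the highest of them, with means of 77.3 in DMSO and 72.5 in CA4. TTR was listed at 0 in all 6. A 0 means that no read was seen, which an expected count of up to about 3 reads could still give. Of the 8 epithelial markers tested, of 12 listed, OTX2 alone passed, with a DMSO mean of 533 ± 104 normalized counts and a CA4 mean of 244 ± 15.5 (SD, n = 3 each; limma adjusted p = 0.0158). MITF fell short of the threshold, at a log2 fold change of -0.98 (limma adjusted p = 0.100), and its groups overlapped. KRT18 did not pass either, at 0.46 (limma adjusted p = 0.0849), though its CA4 libraries all lay above its DMSO libraries. Of the 8 tested, 4 lay above 0 and 4 below. Leukocyte markers summed to at most 10.6, with CD3E at 0 in all 6 libraries. The endothelial markers PECAM1, CDH5 and VWF were present throughout, at a sum of 944 to 1427 in DMSO and 1304 to 3224 in the CA4 libraries, highest in CA4 replicate 3. TERT, which the line carries as a transgene, had 67.6, 65.4 and 39.9 normalized counts in the DMSO libraries and 209.7, 133.5 and 156 in the CA4 libraries. The CA4 libraries of TERT all lay above its DMSO libraries, as did those of 14.3% of all tested genes. The part of these markers in the results was not tested.

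Levels can be set side by side only per length, and for that each mean was divided by the bases in the union of the gene's GENCODE 29 exons. In DMSO, LMNA stood first with 2334 ± 230.2 normalized counts per kilobase (SD, n = 3). LMNB2 at 565 ± 164 and SUN2 at 539.7 ± 23.5 came next, and their ranges over the libraries overlapped. EMD followed at 441 ± 46.2 per kilobase, in a range that overlapped that of LMNB2. SUN1 at 273 ± 9.98, LMNB1 at 203 ± 88 and LBR at 164 ± 46.7 formed a run in which each range overlapped the next. SYNE1 at 56.9 ± 7.27, SYNE2 at 17 ± 2.26 and SYNE3 at 1.68 ± 0.633 were the lowest, with no overlap between them. The union of exons is 46064 bases for SYNE1 and 31374 for SYNE2, which lowers the per-kilobase value wherever short transcripts carry the reads. The same limit holds for the other members, with 18164 bases for SYNE3 and 11811 for SUN1 against 6489 for SUN2. The order therefore depends on the annotated length.

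Of the lamins, LMNA (ENSG00000160789, chr1:156082573-156140089, plus strand), the source of lamins A and C, was the most abundant member. It stood at 17955, 16219.7 and 14742 normalized counts in the DMSO libraries and at 15965, 14207 and 14169 in the CA4 libraries. The groups overlapped, since CA4 replicate 1 lay above DMSO replicate 3. The means were 16306 ± 1608 and 14781 ± 1026 (SD, n = 3 each), a log2 change of -0.14 ± 0.10 (SE; limma adjusted p = 0.441). Its 95% interval of -0.37 to 0.09 spans a change between -22.4% and 6.22%. The log2 fold change was -0.07 without DMSO replicate 1 and -0.21 without DMSO replicate 3. Under quantile normalization it was -0.26, and under equal totals -0.24.

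LMNB1 (ENSG00000113368, chr5:126776623-126837020, plus strand) encodes lamin B1, which stays farnesylated and bound to the membrane. Its normalized counts were 1103, 607 and 505 in the DMSO libraries and 697, 451 and 253 in the CA4 libraries. DMSO replicate 1 stood far above the other control libraries and CA4 replicate 3 far below the other treated ones, and the groups overlapped because CA4 replicate 1 exceeded 2 DMSO libraries. The means of 738 ± 320 and 467 ± 222 (SD, n = 3 each) gave the lowest log2 fold change of the 10 genes, -0.69 ± 0.40 (SE; limma adjusted p = 0.356). The 95% interval, from -1.64 to 0.25, is the widest of the members. This fit, which has no replicate term, therefore cannot tell a change of -67.8% from one of 18.8%. Without DMSO replicate 1 the log2 fold change was -0.36, and without CA4 replicate 3 it was -0.31. Leaving out CA4 replicate 1 brought it to -1.04.

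LMNB2 (ENSG00000176619, chr19:2427638-2456996, minus strand) encodes lamin B2, the other permanently farnesylated lamin. It had 4095, 2574 and 2535 normalized counts in the DMSO libraries and 3051, 3020.5 and 2089 in the CA4 libraries. Again DMSO replicate 1 was the highest and CA4 replicate 3 the lowest, and between them CA4 replicates 1 and 2 lay above DMSO replicates 2 and 3. The log2 change was -0.16 ± 0.22 (SE; limma adjusted p = 0.721; 95% interval -0.67 to 0.36). Its sign turned without DMSO replicate 1, to 0.069, and without CA4 replicate 3, to 0.022. Under equal totals it was -0.26. TIMM13, on the same strand, shares 4.73% of the exon bases of LMNB2 in GENCODE 29, and exchange of reads between them was not tested.

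At the inner membrane, LBR (ENSG00000143815, chr1:225401502-225428925, minus strand), the lamin B receptor that is also a sterol reductase, showed the same arrangement. Its counts were 1146, 734 and 710.3 in the DMSO libraries and 899.8, 738 and 545 in the CA4 libraries. The log2 change was -0.24 ± 0.24 (SE; limma adjusted p = 0.595; 95% interval -0.79 to 0.31). Without DMSO replicate 1 it was -0.02 and without CA4 replicate 3 it was -0.05. Leaving out CA4 replicate 1 brought it to -0.41 and leaving out DMSO replicate 3 to -0.36.

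LMNA, LMNB1, LMNB2 and LBR thus shared their extremes, with DMSO replicate 1 highest and CA4 replicate 3 lowest among the 6 libraries. A list of 10 proliferation genes, which report on cells still in cycle, had the same extremes. Their summed level was 15422, 8008 and 7381 normalized counts in the DMSO libraries and 11913, 7409.8 and 4366 in the CA4 libraries. By library, LMNB1 and this sum ran in the same order apart from 1 exchange, that of CA4 replicate 2 and DMSO replicate 3. All 10 proliferation genes had a log2 fold change below 0, with a median of -0.41, and 0 of the 10 passed (limma; 1 at an unadjusted p under 0.05, beside 23.0% of all tested genes). The smallest adjusted p-values were those of MCM2, a subunit of the replicative helicase, PCNA, the sliding clamp of DNA replication, and CCNB2, a mitotic cyclin. Their log2 fold changes were -0.69, -0.37 and -0.76, with limma adjusted p-values of 0.112, 0.318 and 0.364. The CA4 libraries of MCM2 all lay below its DMSO libraries, as did those of 13.4% of all tested genes. The part of residual proliferation in the LMNB1, LMNB2 and LBR values was not tested.

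**Figure D2:**
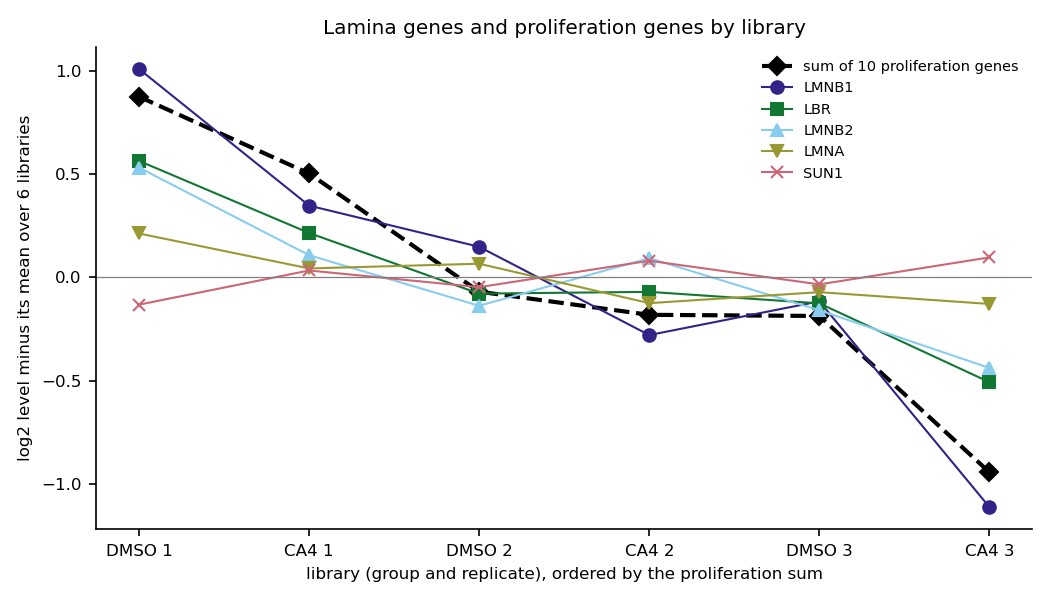
Level of 5 members and of the summed proliferation genes in each library, as log2 level minus its own mean over the 6 libraries (vertical axis), with libraries ordered from the highest to the lowest proliferation sum. LMNB1 spans a somewhat wider range than the proliferation sum, LBR and LMNB2 a narrower one, LMNA a small one, and SUN1 runs the other way, lowest in DMSO replicate 1 and highest in CA4 replicate 3.

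EMD (ENSG00000102119, chrX:154379197-154381523, plus strand) encodes emerin, a LEM-domain protein that binds lamin A, chromatin and nesprins. Its normalized counts were 991, 876 and 806 in the DMSO libraries and 1109, 1102 and 981 in the CA4 libraries. Only CA4 replicate 3 lay within the DMSO range, just under DMSO replicate 1. The means were 891 ± 93.3 and 1064 ± 71.9 (SD, n = 3 each), a log2 change of 0.26 ± 0.11 (SE). The unadjusted p was 0.047 and the limma adjusted p 0.211, so emerin mRNA did not pass. The 95% interval was 0.0044 to 0.51, at most a 42.6% higher level. Scaled to equal totals, the log2 fold change was 0.16 and its unadjusted p was no longer under 0.05.

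The SUN genes had the lowest coefficients of variation of the 10, 3.65% in DMSO and 2.27% in CA4 for SUN1, where LMNB1 had 43.3% and 47.6%. SUN1 (ENSG00000164828, chr7:816615-896435, plus strand) had 3092, 3279.7 and 3310.2 normalized counts in the DMSO libraries and 3469, 3584 and 3625 in the CA4 libraries. All 3 CA4 libraries lay above all 3 DMSO libraries, as did those of 14.3% of the tested genes, and SUN1 was the 1 member of 10 with groups apart. The means of 3227 ± 118 and 3559 ± 80.8 (SD, n = 3 each) differed by 10.3%, a log2 change of 0.14 ± 0.07 (SE; limma adjusted p = 0.285; 95% interval -0.02 to 0.31, or -1.63% to 23.7%). Under scaling to equal totals the groups overlapped, and the log2 fold change was 0.04, as it was under quantile normalization. GET4, on the same strand, shares 15.6% of the exon bases of SUN1, and the assignment of shared reads was not tested either.

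SUN2 (ENSG00000100242, chr22:38734725-38794143, minus strand), the partner of SUN1 with which it shares much of its role, stood at 3648, 3514 and 3343 in the DMSO libraries and at 3483, 3590.5 and 3740.5 in the CA4 libraries. The libraries of the groups were interleaved. Its log2 change of 0.04 ± 0.07 (SE; limma adjusted p = 0.785) was the nearest to 0 of the members, and the 95% interval of -0.13 to 0.21 leaves room for -8.64% to 16.0%. Its sign was negative under 2 other scalings, at -0.067 with quantile normalization and -0.059 with equal totals, and the change was 0.0094 with the same 75th percentile. With 1 library left out it ran from 0.0091 without DMSO replicate 3 to 0.072 without DMSO replicate 1. Exons of GTPBP1 on the opposite strand cover 10.5% of its exon bases, and whether the authors' counting used strand is not given in the sources used here.

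Among the nesprins the 2 giant genes had mean changes of opposite sign, and neither passed in the main fit, which has no replicate term. SYNE1 (ENSG00000131018, chr6:152121684-152637801, minus strand) encodes nesprin-1, whose giant form binds actin. It had 2582, 2310.15 and 2976 normalized counts in the DMSO libraries and 3216, 2865 and 3865 in the CA4 libraries. CA4 replicate 2 lay below DMSO replicate 3, so the groups overlapped. The means were 2623 ± 335 and 3315 ± 508 (SD, n = 3 each), a log2 change of 0.33 ± 0.14 (SE). SYNE1 had the smallest p of the 10 genes, 0.042, and a limma adjusted p of 0.199. The 95% interval ran from 0.02 to 0.65, a level 1.1% to 57.3% higher. Without CA4 replicate 3 the log2 fold change was 0.22.

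SYNE2 (ENSG00000054654, chr14:63852983-64226433, plus strand) encodes nesprin-2, the other giant nesprin. It stood at 474, 515 and 612 in the DMSO libraries and at 436, 365 and 611 in the CA4 libraries. In both groups replicate 3 was the highest, as it was for SYNE1. The log2 change was -0.21 ± 0.20 (SE; limma adjusted p = 0.585; 95% interval -0.67 to 0.26). Leaving out CA4 replicate 2 brought it to -0.04, leaving out DMSO replicate 3 to -0.10 and leaving out CA4 replicate 3 to -0.41. SYNE3 (ENSG00000176438, chr14:95407266-95475836, minus strand) encodes nesprin-3, which ties the nucleus to intermediate filaments through plectin. At 43.5, 21.5 and 26.6 normalized counts in DMSO and 39.6, 47.1 and 32.3 in CA4 it was too low for a precise value, with a log2 fold change of 0.41 and a 95% interval from -0.39 to 1.22 (limma adjusted p = 0.525). With 1 library left out the SYNE3 value ran from 0.20 without DMSO replicate 2 to 0.69 without DMSO replicate 1.

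**Figure D3:**
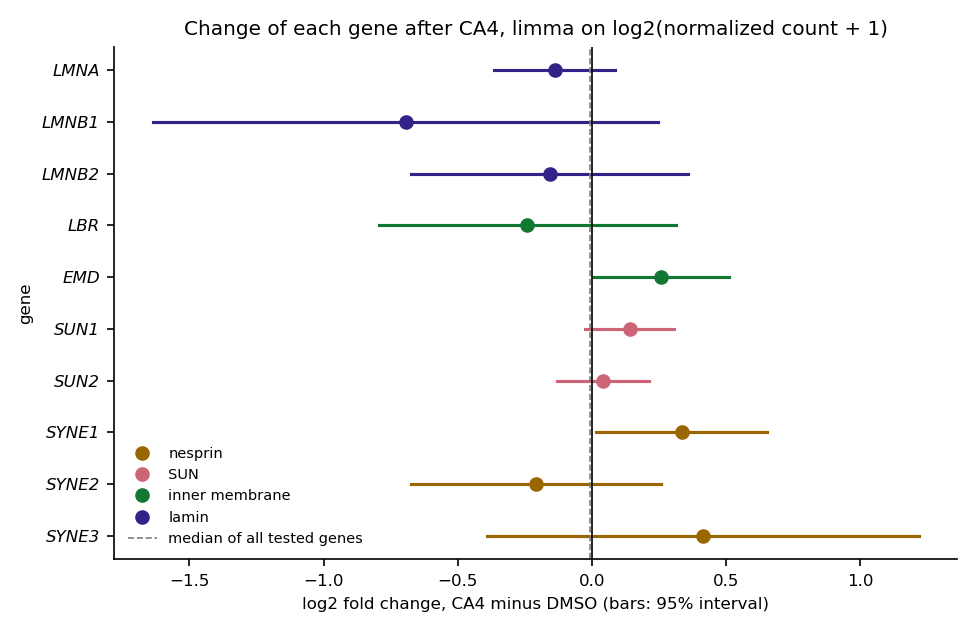
Log2 fold change of CA4 against DMSO for each gene (points) with its 95% interval (bars) from limma, coloured by role, and the median of all tested genes as a dashed line. The intervals of SUN1, SUN2 and LMNA are short, those of LMNB1 and SYNE3 are long, and those of EMD and SYNE1 alone lie above 0 before adjustment over all genes.

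Ratios of paired members within a library do not depend on the scaling factor, and the change of a ratio of 2 single genes does not depend on their lengths. The sum of LMNB1 and LMNB2 adds counts that are not per length, so it weights the longer LMNB2 more. The count of LMNA over this sum, the balance of A-type to B-type lamin mRNA, was 3.45, 5.10 and 4.85 in the DMSO libraries and 4.26, 4.09 and 6.05 in the CA4 libraries. Its means of 4.47 ± 0.886 and 4.8 ± 1.09 (SD, n = 3 each) differed by less than the spread within either group (log2 difference 0.10, two-sided exact permutation p = 0.7), and the difference turned to -0.074 without DMSO replicate 1 and to -0.077 without CA4 replicate 3. The ratio of SUN1 to SUN2 was 0.848, 0.933 and 0.990 in DMSO and 0.996, 0.998 and 0.969 in the CA4 libraries, with overlap (log2 difference 0.10, two-sided exact permutation p = 0.2). That difference was 0.039 without DMSO replicate 1 and 0.15 without DMSO replicate 3.

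SYNE1 to SYNE2 was the 1 ratio of the 3 with groups apart. It stood at 5.45, 4.48 and 4.86 in the DMSO libraries and at 7.38, 7.86 and 6.33 in the CA4 libraries, with means of 4.93 ± 0.485 and 7.19 ± 0.781 (SD, n = 3 each). The log2 difference was 0.54. Its two-sided exact permutation p was 0.1, the smallest that this test allows for 3 libraries against 3, and 0.3 after Benjamini-Hochberg adjustment over the 3 ratios. This test therefore could not have called it. Both genes were highest in replicate 3 of their group.

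**Figure D4:**
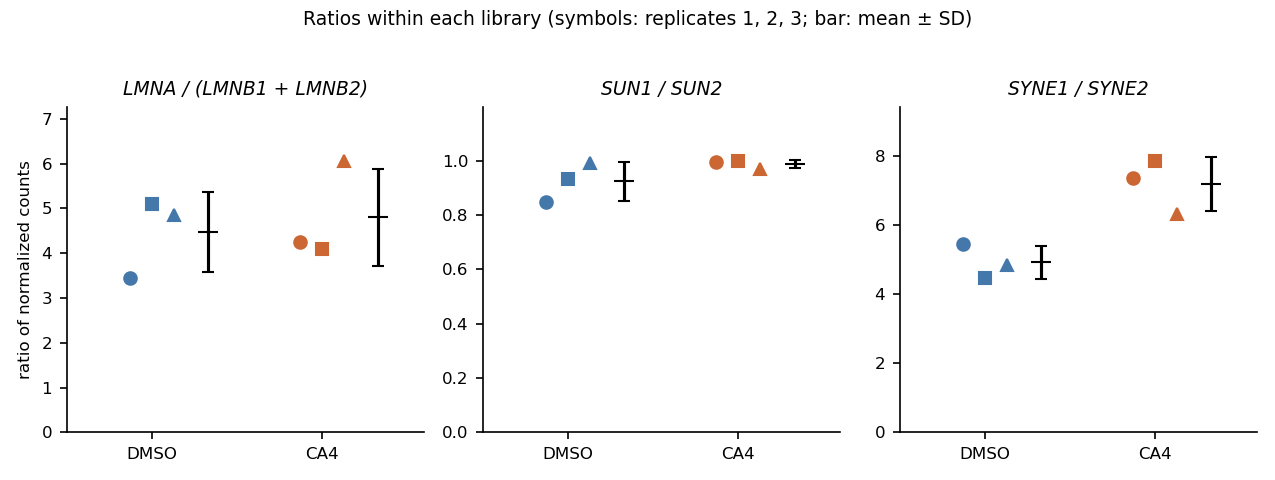
Ratio of normalized counts within each library (vertical axis, from 0) for LMNA over the B-type lamins, SUN1 over SUN2 and SYNE1 over SYNE2, with symbols for replicates 1, 2 and 3 and the mean ± SD beside them. The SYNE1 to SYNE2 points of CA4, from 6.33 to 7.86, all lie above those of DMSO, from 4.48 to 5.45, and the other ratios overlap.

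Nor did any tested gene of the other lists of nuclear envelope genes and their partners pass. Of 12 tested genes of the inner membrane, LEM-domain and torsin list, which holds proteins that tether chromatin to or remodel the envelope, 0 passed (limma; 2 at an unadjusted p under 0.05, beside 23.0% of all tested genes), with a median log2 fold change of -0.00041. ANKLE2, a LEM protein that acts in rebuilding the envelope after mitosis, came closest. It had 5556, 4920 and 5259 normalized counts in the DMSO libraries and 6902, 6257 and 6898 in the CA4 libraries, which all lay higher, as in 14.3% of all tested genes. The log2 fold change of 0.35 had a limma adjusted p of 0.0539. NEMP1, an inner-membrane protein that supports nuclear stiffness, had a log2 fold change of -0.52 (limma adjusted p = 0.171), and its CA4 libraries all lay below those of DMSO, as did those of 13.4% of all tested genes. TMEM43, which binds emerin and lamins, followed with -0.13 (limma adjusted p = 0.447). TMPO, LEMD2, LEMD3, BANF1, TOR1A, TOR1B, TOR1AIP1, TOR1AIP2 and TMEM201 had log2 fold changes between -0.05 and 0.06. NRM was not analysed here.

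Prelamin processing was represented by 5 genes, FNTA and FNTB for the farnesyltransferase, RCE1 and ZMPSTE24 for the proteases and ICMT for the methyltransferase. Of these 0 passed (limma; 1 at an unadjusted p under 0.05, again beside 23.0%), and the median was 0.11. RCE1 had the highest log2 fold change at 0.56 (limma adjusted p = 0.146). FNTA stood at 0.20 (limma adjusted p = 0.256) and ZMPSTE24, the protease that matures prelamin A, at 0.11 (limma adjusted p = 0.532). Of 6 cytoplasmic partners of nesprins 0 passed (limma; 3 at an unadjusted p under 0.05, beside 23.0% of all tested genes), 5 lay above 0, and the median was 0.20. KIF5B, the kinesin-1 motor that nesprins recruit to the nucleus, averaged 6345 ± 552 normalized counts under DMSO and 7713 ± 116 under CA4 (SD, n = 3 each), a log2 change of 0.29 (limma adjusted p = 0.0919). BICD2, a dynein adaptor, and KLC2, a kinesin light chain, stood at 0.22 and 0.20, with limma adjusted p-values of 0.145 and 0.176. These 3 had CA4 libraries entirely above the DMSO libraries, as had 14.3% of all tested genes.

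The nucleoporins, which build the pores that share the envelope with the LINC complex, numbered 30. Among them 0 passed (limma; 6 at an unadjusted p under 0.05, beside 23.0% of all tested genes), 19 lay above 0 and the median was 0.08. SEC13, POM121 and RANBP2 had the smallest adjusted p-values, at 0.32, 0.26 and 0.32 on the log2 scale, where limma gave 0.0869, 0.0985 and 0.119 as adjusted p. Of the 6 other SUN and KASH genes, most of them restricted to germ cells or single tissues, 2 were abundant enough to be tested and neither passed. SPAG4 averaged 185 ± 41.8 normalized counts under DMSO and 169 ± 32.3 under CA4 (SD, n = 3 each; limma adjusted p = 0.807), and IRAG2 had a limma adjusted p of 0.815. SUN5 and KASH5 were at 0 in all 6 libraries.

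**Figure D5:**
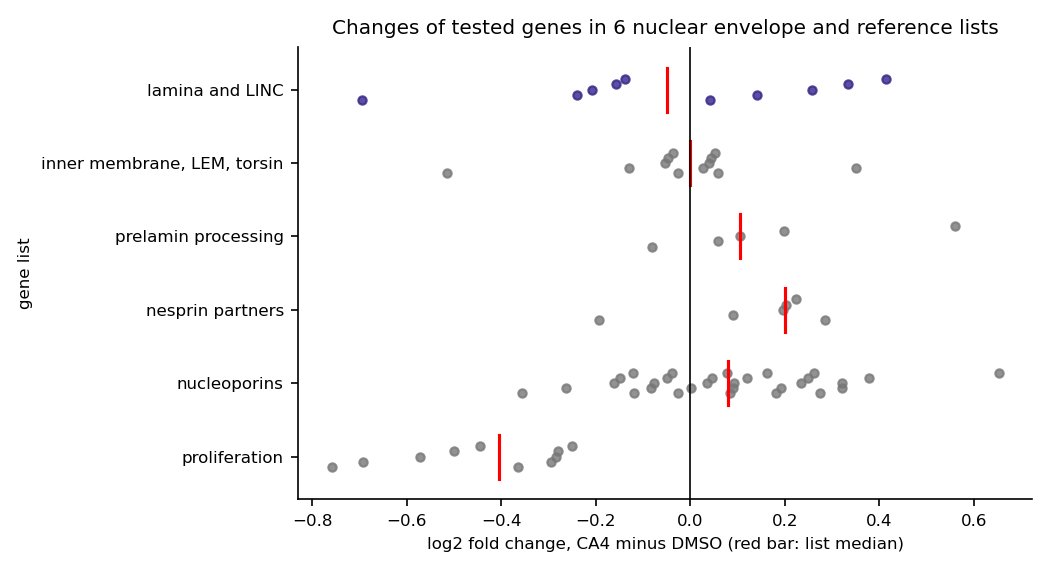
Log2 fold changes of the tested genes (points, horizontal axis) in the lamina and LINC set, 4 related lists and the proliferation list, with the median of each list as a red bar. The lamina and LINC genes spread on both sides of 0 around a median of -0.05, and the proliferation genes all lie below 0.

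For the 3 members with the smallest adjusted p, the genes most alike in pattern over the 6 libraries were sought among the 11680 other genes that averaged 50 normalized counts or more. The measure was Pearson's r of log2(normalized count + 1), which is given as a description, since the 6 points share the treatment groups and each r is among the highest of 11680 values. SYNE1 was most like TET3 (r = 0.995), MRPL47 (r = 0.993) and CCDC180 (r = 0.989). EMD was most like ARPC4 (r = 0.996), a subunit of the actin-nucleating Arp2/3 complex, SERPINB2 (r = 0.988) and XPO6 (r = 0.986), the nuclear exporter of actin. For SUN1 they were FN1 (r = 0.992), ENSG00000290513 (r = 0.992) and ZNF75A (r = 0.989). None of these genes passed the test (limma), with adjusted p-values from 0.0749 for SERPINB2 to 0.495 for MRPL47.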

How the data were processed

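The deposited table holds normalized counts, a signal that the authors made by dividing gene reads by library-specific factors. The submitters' processing notes list Trim Galore 0.6.6, FastQC 0.12.1, Salmon 1.8.0, STAR 2.7.9a, DESeq2 1.44.0 and GRCh38, without role or order. The annotation release and strand setting are not given in the sources used here. In every column 100% of values were whole multiples of 1 step within a tolerance of 0.01, which recovered whole reads, possibly rounded estimates. Symbols came from a table of Ensembl names. Genes with a mean of at least 10 were tested, 13928 in all, on log2(normalized count + 1) with limma 3.58.1 in R 4.3.3 (treatment as the only term, mean trend, two-sided, Benjamini-Hochberg over all tested genes, threshold 0.05). Fold changes on this scale understate low genes. Errors are sample SDs and limma's moderated standard errors. Alternatives were other pseudocounts, filters, scalings and variance priors, a replicate block, edgeR 4.0.16, DESeq2 1.42.0 and leaving out each library. Scripts were tested on simulated data without a replicate effect, in which 200 of 13928 genes changed 2-fold. The main limma fit recovered 59.5% of these, and 7.03% of its calls were false. The false share was 16.4% with the replicate block, 7.14% in edgeR and 21.7% in DESeq2. Members and lists were chosen with earlier results of these data known. Named are all members and, of each other list, genes past the threshold or 3 with the lowest adjusted p. Further names give context and were picked with values in view.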

Additional observations from a re-analysis of the deposited data

How the results depend on the processing

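The 10 members gave 179 log2 fold changes under 18 alternatives, of which 173 kept their direction and stayed short of the threshold. The sign of SUN2 turned under quantile normalization (-0.067) and equal totals (-0.059). That of LMNB2, whose log2 fold change ran from -0.28 to 0.069 with 1 library left out, turned without DMSO replicate 1 (0.069) and without CA4 replicate 3 (0.022). With the replicate number as a block, 2 members passed, SYNE1 (limma adjusted p = 0.0136) and LMNB1 (limma adjusted p = 0.0151), beside 17.2% of all genes, 2397 in number. Same-numbered libraries had correlations of deviations of 0.202, 0.159 and 0.0588, not all over 0.1, and the labels name no shared culture or day, so the libraries were not treated as paired. Whether same-numbered libraries belong together is not known. Of the 6 libraries 5 correlated best with their own number, and CA4 replicate 3 correlated best with DMSO replicate 2 (0.0741). In every alternative but the block 0 of the 10 members passed. Of all tested genes 688 passed, 103 without the variance trend, 1613 in DESeq2 and 81 to 994 with 1 library left out, the fewest without DMSO replicate 3 and the most without DMSO replicate 1. The log2 difference of the lamin A/C to B-type ratio, 0.10, ran from -0.077 to 0.21 with 1 library left out, and was -0.074 without DMSO replicate 1 and -0.077 without CA4 replicate 3. The SUN1 to SUN2 and SYNE1 to SYNE2 differences kept their sign in every alternative tried, and ran from 0.039 to 0.15 and from 0.48 to 0.63 with 1 library left out. SYNE3 has few reads, and a mean of at least 50 normalized counts leaves it out.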
